A study of Mus musculus with 18 samples.

Results

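The NF-κB pathway and its feedback inhibitors were examined in colon RNA-Seq data as 10 named genes out of the 47729 in the count table. The genes were taken by name, comprising the ligands *Tnf* and *Il1a*, the subunits *Nfkb1*, *Nfkb2* and *Relb*, the IκB family genes *Nfkbia*, *Nfkbiz* and *Bcl3*, and the feedback inhibitors *Tnfaip3* and *Zc3h12a*. The libraries came from colon, as the tissue label gives it, of WT mice and of *Cldn2*KO mice, which lack the tight junction protein claudin-2. Both lines were on a C57BL/6 background, and ages are not given in the sources used here. For each genotype there were control mice, mice in DSS recovery (mucosal repair after colitis induced by dextran sulfate sodium) and AOM/DSS mice (colitis-associated cancer induced by the carcinogen azoxymethane with DSS), with 3 libraries in each of the 6 groups. The AOM/DSS regimen was 10 mg/kg AOM given once, followed by 2.5% DSS in 3 cycles. GEO's protocol text lists this regimen for all 18 libraries, controls included, and the groups were therefore taken from the treatment labels. The length of recovery is not given in the sources used here.

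NF-κB is a family of dimeric transcription factors that are held in the cytoplasm by IκB proteins. Receptors for TNF and IL-1 activate the IκB kinases, IκBα is then degraded, and the dimers enter the nucleus and turn on inflammatory genes. Several of the genes turned on in this way encode inhibitors of the pathway, such as IκBα (*Nfkbia*) and A20 (*Tnfaip3*), which close a negative feedback loop. In the intestine, NF-κB acts both in epithelial cells, where it supports survival and barrier repair, and in immune cells, where it drives cytokine production.

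Promoter sequences are shown for 4 members, because *Nfkb2*, *Nfkbia* and *Tnfaip3* are textbook NF-κB target genes and *Zc3h12a* had the largest difference between genotypes among the called members. RefSeq (GRCm38.p6) gave a promoter for 7 of the 10 members, and *Nfkb1*, *Relb* and *Nfkbiz* had none. The 250 bases before the RefSeq start were searched on both strands for the κB consensus, and capitals mark its matches. RefSeq lists 3 windows for *Nfkb2*, all with a match, and 2 for *Tnfaip3*, of which 1 has a match, and the window nearest to the GENCODE start is shown. The RefSeq start of the window shown lies 417 bases inside the GENCODE gene for *Nfkb2* and 247 bases inside it for *Tnfaip3*. These 2 windows thus lie within, or almost wholly within, the GENCODE gene. In the windows shown, *Nfkb2* had 2 such places at 39 to 29 and 11 to 2 bases before the start, *Nfkbia* had 1 at 29 to 20 bases, and *Tnfaip3* had 2 at 125 to 116 and 12 to 3 bases. Of all 32851 RefSeq windows of this length, 7.251% held at least 1 match. The windows of *Tnf*, *Il1a*, *Bcl3* and *Zc3h12a* held none, which says only that these letters are not in these windows. A match is a description of the sequence and not evidence of binding.
Nfkb2 (chr19:46304487-46304736, plus strand): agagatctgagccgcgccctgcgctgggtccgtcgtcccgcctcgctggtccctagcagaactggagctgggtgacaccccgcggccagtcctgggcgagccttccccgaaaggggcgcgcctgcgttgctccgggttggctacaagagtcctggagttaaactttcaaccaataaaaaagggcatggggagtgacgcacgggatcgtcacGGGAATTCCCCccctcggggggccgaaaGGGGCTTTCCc
Nfkbia (chr12:55492648-55492897, minus strand): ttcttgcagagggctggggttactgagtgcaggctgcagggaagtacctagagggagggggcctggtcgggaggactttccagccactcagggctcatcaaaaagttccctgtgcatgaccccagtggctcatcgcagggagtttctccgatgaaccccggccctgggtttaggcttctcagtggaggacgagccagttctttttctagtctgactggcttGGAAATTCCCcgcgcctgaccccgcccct
Tnfaip3 (chr10:19015411-19015660, minus strand): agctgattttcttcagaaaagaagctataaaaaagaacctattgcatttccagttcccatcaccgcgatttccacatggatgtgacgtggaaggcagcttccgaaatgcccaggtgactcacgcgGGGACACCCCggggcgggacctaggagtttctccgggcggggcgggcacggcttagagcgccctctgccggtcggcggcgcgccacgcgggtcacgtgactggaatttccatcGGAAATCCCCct
Zc3h12a (chr4:125127882-125128131, minus strand): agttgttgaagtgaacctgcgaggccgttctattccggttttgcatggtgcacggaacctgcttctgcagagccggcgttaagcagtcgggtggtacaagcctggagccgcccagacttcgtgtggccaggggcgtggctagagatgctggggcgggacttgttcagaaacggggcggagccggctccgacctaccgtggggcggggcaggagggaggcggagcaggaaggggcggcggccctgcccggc

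Each library held 17.6 to 27.4 M counted reads. Levels are given as counts per M reads (CPM) after TMM scaling, and a gene was called when its edgeR adjusted p was under 0.05 over the 16937 genes tested. The labels give separate samples without naming animals, and p-values measure the spread between these samples. *Xist* exceeded 100 CPM in 6 libraries and in no control or WT AOM/DSS library. The 6 were replicates 2 and 3 in WT recovery, in *Cldn2*KO recovery and in *Cldn2*KO AOM/DSS. Each of these 3 groups thus held libraries that came from different animals, and comparisons of these groups with the others also compared libraries that differed in *Xist*. *Cldn2* stood at 44.5 to 504 CPM in the WT libraries and at 0.0555 to 0.557 CPM in the *Cldn2*KO libraries. The distal colon genes *Hoxb13* and *Hoxd13* separated the libraries in another way. *Hoxb13* stood at 198 to 570.1 CPM in 11 libraries and at no more than 0.502 CPM in the other 7, which were the 6 recovery libraries and WT control replicate 2. The study's text gives distal colon as the source of the recovery RNA, yet the summed level of both distal genes was no more than 0.574 CPM in every recovery library. WT control replicate 2 was thus the 1 library in which low *Hoxb13* did not go with recovery. In it *Ly6g*, listed as a neutrophil marker, stood at 0.589 CPM, while replicates 1 and 3 of that group had 517 and 464 CPM. The other 6 neutrophil markers summed to 0.327 to 2.36 CPM in WT controls and 0.197 to 0.592 CPM in *Cldn2*KO controls. *Ly6g* is therefore not read as a measure of neutrophils here. *Ly6g* made up at least 99.9% of the sum of 7 neutrophil markers in *Cldn2*KO controls and 43.2 to 99.8% in the other groups, and neutrophil sums are therefore given over the other 6.

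All 10 members passed the filter on low counts. Compared per length, as mean CPM per kilobase over the 18 libraries, *Nfkbia* had the highest level (50.9), followed by *Nfkbiz* (19.6), *Zc3h12a* (15.8), *Relb* (14.3), *Bcl3* (13.7), *Tnfaip3* (10.3), *Nfkb2* (9.85), *Nfkb1* (5.49), *Tnf* (3.26) and *Il1a* (0.705). The cytokines were thus measured on few reads, from 5 to 528 per library for *Tnf* and from 2 to 309 for *Il1a*. These 2 genes varied most between libraries, with a ratio of the highest to the lowest library of 101 for *Tnf* and 102 for *Il1a*. *Il1a*, *Nfkb2* and *Bcl3* share 222, 830 and 161 exonic bases with genes on the other strand, and because strandedness of the counts is not given, their values are uncertain.

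In the treated groups, single libraries were the highest or lowest of their group for many members. In WT AOM/DSS, replicate 3 was the highest for 8 of the 10 members and replicate 1 the lowest for all 10. In *Cldn2*KO AOM/DSS, replicate 2 was the lowest for 9 members. In WT recovery, replicate 2 was the lowest for 8 members. In *Cldn2*KO recovery, replicate 2 was the highest for 5 members, *Tnf*, *Nfkb2*, *Nfkbia*, *Tnfaip3* and *Zc3h12a*, and replicate 1 the lowest for 7. The WT controls were more divided, with 4, 3 and 3 members highest in replicates 1, 2 and 3, and replicate 2 lowest for the other 7. In *Cldn2*KO controls 0, 4 and 6 members were highest in replicates 1, 2 and 3. Members measured in 1 library share its RNA and are not replicates of each other. In bulk tissue, fewer cells of a type and less RNA per cell cannot be told apart.

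**Figure D1:**
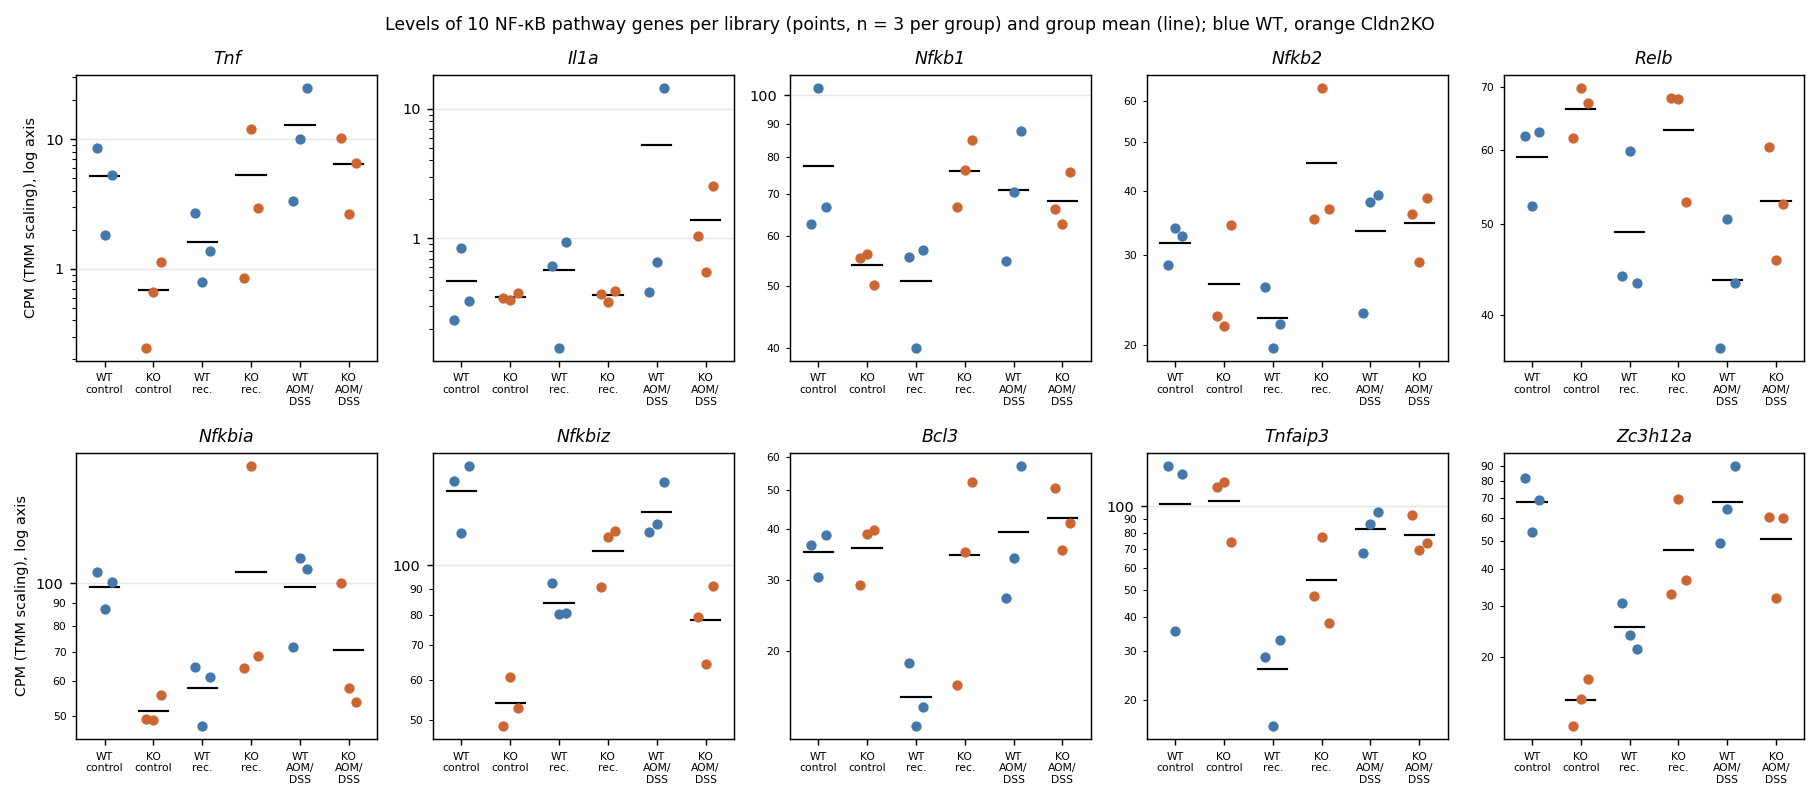
CPM with TMM scaling (log axis, scaled per gene) of the 10 NF-κB pathway genes in every library, with points for the 3 libraries of each group, lines for the group mean, WT in blue and *Cldn2*KO in orange. *Zc3h12a* and *Nfkbiz* were lowest in the *Cldn2*KO controls, at 11.6 to 16.8 and 48.8 to 60.7 CPM, while *Tnf* and *Il1a* spanned about 2 orders of magnitude.

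The controls were compared first to give the level of the pathway in *Cldn2*KO colon without challenge. The feedback gene *Zc3h12a* and the atypical IκB gene *Nfkbiz* were lower in *Cldn2*KO than in WT controls, whereas *Tnfaip3*, *Bcl3* and *Relb* had nearly equal means. These 2 members were called lower, at a background of 1.05% of all tested genes called lower in this comparison. At an unadjusted p under 0.05, 5 members were lower and 0 higher, at a background of 8.87%. The median log2 fold change of the members was -0.44, against -0.0055 over all genes.

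*Zc3h12a* (ENSMUSG00000042677, GRCm38 chromosome 4, 125118423 to 125127840, minus strand, protein coding) encodes Regnase-1, an RNase that degrades mRNAs of inflammatory cytokines. It stood at 81.7, 53.6 and 68.9 CPM in WT controls and at 11.6, 14.4 and 16.8 CPM in *Cldn2*KO controls. All *Cldn2*KO libraries lay far below all WT libraries, including WT control replicate 2. The log2 fold change was -2.25 (SE 0.326, adjusted p 0.00347), or 4.76-fold lower. It was called in 17 of 17 alternative settings, with log2 fold changes from -2.49 to -2.10 and adjusted p from 9.12e-09 to 0.0416.

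*Nfkbiz* (ENSMUSG00000035356, chromosome 16, 55811375 to 55838899, minus strand, protein coding) encodes IκBζ, a nuclear IκB protein that is needed for a subset of NF-κB target genes. Its level was 146, 115 and 156 CPM in WT controls and 48.8, 60.7 and 52.7 CPM in *Cldn2*KO controls. The groups did not overlap, and the lowest WT library again was replicate 2. The log2 fold change was -1.36 (SE 0.164, adjusted p 0.000914), or 2.57-fold lower, and it was called in 17 of 17 alternative settings, with adjusted p from 1.37e-11 to 0.0221.

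The other IκB gene that was lower in every *Cldn2*KO control was *Nfkbia* (ENSMUSG00000021025, chromosome 12, 55489410 to 55492647, minus strand, protein coding). It encodes IκBα, the inhibitor that keeps NF-κB dimers in the cytoplasm. Its levels were 106, 87.3 and 100.5 CPM in WT and 49.3, 49.1 and 55.7 CPM in *Cldn2*KO controls. The groups did not overlap, yet the difference was not called (log2 fold change -0.93, SE 0.34, adjusted p 0.227), and 2 of 17 alternative settings called it.

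*Tnf* (ENSMUSG00000024401, chromosome 17, 35199381 to 35202007, minus strand, protein coding) encodes the cytokine that activates the pathway through TNF receptors. It stood at 8.53, 1.83 and 5.32 CPM in WT controls and at 0.246, 0.666 and 1.13 CPM in *Cldn2*KO controls, which rest on 5, 12 and 21 reads. Each *Cldn2*KO library was below each WT library, and WT control replicate 2 was nearest to them. The log2 fold change of -2.95 had a wide error (SE 0.995, adjusted p 0.187) and was not called. *Nfkb1* (ENSMUSG00000028163, chromosome 3, 135584655 to 135691547, minus strand, protein coding), the gene of the p105 precursor and p50 subunit, stood at 62.7, 103 and 66.7 CPM in WT and at 55.4, 56.2 and 50.3 CPM in *Cldn2*KO controls. Its difference of -0.52 (SE 0.204, adjusted p 0.275) leaned on WT control replicate 2, and it was -0.28 when that library and *Cldn2*KO recovery replicate 2 were left out together.

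The remaining members overlapped between the control groups. *Tnfaip3* (ENSMUSG00000019850, chromosome 10, 19000910 to 19015657, minus strand, protein coding) encodes A20, a ubiquitin-editing enzyme that stops signalling upstream of the IκB kinases, and it stood at 139.6, 35.5 and 131 CPM in WT and at 118, 122 and 74.1 CPM in *Cldn2*KO controls. WT control replicate 2 was the lowest of the 6 libraries for this gene. *Bcl3* (ENSMUSG00000053175, chromosome 7, 19808462 to 19822770, minus strand, protein coding), a nuclear IκB protein that binds p50 and p52 dimers, ranged from 30.4 to 38.7 CPM in WT and from 29.0 to 39.7 CPM in *Cldn2*KO controls.

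*Relb* (ENSMUSG00000002983, chromosome 7, 19606217 to 19629438, minus strand, protein coding) encodes the RelB subunit of the non-canonical pathway, and its control levels were 62.1, 52.3 and 62.6 CPM in WT and 61.7, 69.9 and 67.2 CPM in *Cldn2*KO. *Nfkb2* (ENSMUSG00000025225, chromosome 19, 46304320 to 46312385, plus strand, protein coding), the gene of the p100 precursor and p52 subunit, had 28.7, 33.9 and 32.7 CPM in WT and 22.8, 21.9 and 34.3 CPM in *Cldn2*KO. In *Il1a* (ENSMUSG00000027399, chromosome 2, 129299610 to 129309972, minus strand, protein coding), which encodes IL-1α, a cytokine released by damaged cells, no control library of either genotype exceeded 0.851 CPM. For these 5 genes the log2 fold change was between -0.36 and 0.17, and the adjusted p was at least 0.731.

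**Figure D2:**
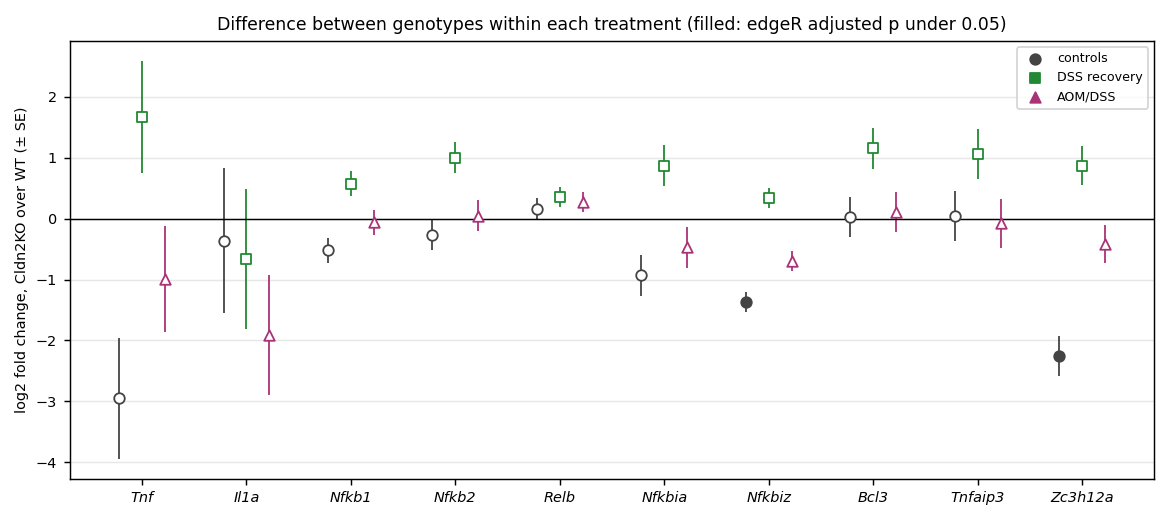
Log2 fold change of *Cldn2*KO over WT (y axis) for each of the 10 genes within controls (grey circles), DSS recovery (green squares) and AOM/DSS (purple triangles), with bars for the SE and filled symbols for genes called by edgeR. *Zc3h12a* at -2.25 and *Nfkbiz* at -1.36 in the controls are the called points, and 9 of the 10 recovery points lie above 0.

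Cell type markers also differed between the control groups. The summed level of 6 B and plasma cell markers was 734 to 896 CPM in WT controls and 13.3 to 165 CPM in *Cldn2*KO controls, with 1 of 6 called lower. *Jchain*, a plasma cell gene, made up most of it, and without *Jchain* the sums overlapped (15.6 to 73.0 and 1.94 to 79.9 CPM). The sum of 9 T and NK cell markers was 10.5, 138 and 14.5 CPM in WT controls 1, 2 and 3 and 1.39 to 8.50 CPM in *Cldn2*KO, with 4 of 9 called lower. For 9 macrophage markers the sums overlapped (249.7 to 368 and 127 to 386 CPM), 0 of 9 were called and all 9 had negative log2 fold changes. The sum of 6 smooth muscle markers was higher in *Cldn2*KO, at 7225 to 9601 CPM against 3528 to 5313 CPM, with 0 of 6 called. The sum of 8 epithelial markers was lower in each *Cldn2*KO control, at 14610 to 17630 CPM against 18610 to 19720 CPM, with 6 of 8 negative and 0 called. That of 4 endothelial markers was also lower without overlap (35.0 to 41.1 against 42.9 to 57.0 CPM), with 4 of 4 negative and 0 called. The 5 dendritic cell markers were all negative, with overlapping sums (2.28 to 7.91 and 7.55 to 12.2 CPM) and 0 called. The 4 small intestine markers summed to 33.1 to 60.6 CPM in WT and 4.34 to 8.18 CPM in *Cldn2*KO controls, without overlap, with all 3 tested negative and 0 called. Of these 8 lists no marker was at 0 throughout a group. Their part in the lower *Zc3h12a* and *Nfkbiz* was not tested.

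The DSS recovery groups were compared because mucosal repair was the setting in which the genotypes were followed after colitis. In *Cldn2*KO recovery the log2 fold change was positive for 9 of 10 members, with a median of 0.87 against 0.0042 over all genes and 50.3% of all genes positive. No member was called by edgeR, at a background of 0.974% of all genes called in either direction. At an unadjusted p under 0.05, 7 members were higher and 0 lower (background 9.41% higher). The number at this p was 3 without *Cldn2*KO recovery replicate 2 and 4 without WT recovery replicate 2. Of all 16937 genes, 2185 and 2231 were at this p in these fits, in either direction. DESeq2 called 2 members, at a background of 10.3% of the genes it gave an adjusted p in either direction, and limma-voom 6, at 11.2%.

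Of the subunits, *Nfkb2* stood at 26.0, 19.8 and 22.1 CPM in recovering WT mice and at 35.3, 63.8 and 37.0 CPM in *Cldn2*KO recovery. The groups did not overlap, and *Nfkb2* was 2.005-fold higher in *Cldn2*KO (SE 0.254 on the log2 scale, adjusted p 0.0626). Without *Cldn2*KO recovery replicate 2 its log2 fold change was 0.68, and without replicate 1 it was 1.15 and called (adjusted p 0.0386). Of 16 alternative settings, 5 called *Nfkb2*. *Nfkb1* was also separated, at 55.7, 40.0 and 57.0 CPM in WT and 66.8, 76.3 and 84.9 CPM in *Cldn2*KO (log2 fold change 0.58, SE 0.205, adjusted p 0.131). Neither was called. *Relb* overlapped, at 44.1, 59.8 and 43.2 CPM against 68.1, 67.9 and 52.8 CPM (log2 fold change 0.36, SE 0.165, adjusted p 0.239).

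Of the IκB genes, *Bcl3* stood at 18.7, 13.1 and 14.6 CPM in recovering WT mice and at 16.5, 35.0 and 52.1 CPM in *Cldn2*KO recovery. Replicate 1 of *Cldn2*KO lay within the WT range and the other 2 well above it (log2 fold change 1.16, SE 0.338, adjusted p 0.0801). Without replicate 1 *Bcl3* was called (1.49, adjusted p 0.0194). Over 16 alternative settings its log2 fold change ran from 0.74 to 1.49, and 3 called it. *Nfkbia* was at 64.6, 47.5 and 61.5 CPM in WT and at 64.3, 184 and 68.5 CPM in *Cldn2*KO. Its difference of 0.87 (SE 0.34, adjusted p 0.167) rested on *Cldn2*KO recovery replicate 2, without which it was 0.20. *Nfkbiz* was closer, at 92.4, 80.5 and 80.7 CPM against 90.7, 113 and 116 CPM (log2 fold change 0.34, SE 0.161, adjusted p 0.261).

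Both feedback inhibitors, like *Nfkb1* and *Nfkb2*, were higher in every *Cldn2*KO recovery library than in any WT recovery library, and neither was called. *Tnfaip3* stood at 28.6, 16.1 and 33.1 CPM in WT and at 47.3, 77.5 and 37.9 CPM in *Cldn2*KO (log2 fold change 1.06, SE 0.416, adjusted p 0.168). *Zc3h12a* stood at 30.6, 23.9 and 21.4 CPM in WT and at 32.9, 69.5 and 36.7 CPM in *Cldn2*KO (log2 fold change 0.87, SE 0.314, adjusted p 0.137). Replicate 2 of *Cldn2*KO was the highest for both genes, and without it the differences were 0.71 and 0.46. *Tnf* reached 11.97 CPM in that library, with 0.857 and 2.95 CPM in the other *Cldn2*KO libraries and 2.69, 0.789 and 1.36 CPM in WT recovery, and the groups overlapped. *Il1a* stayed at 0.144 to 0.946 CPM in WT and 0.325 to 0.394 CPM in *Cldn2*KO recovery.

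Cell type markers were read beside these values. The sum of the 9 macrophage markers was 79.0 to 119 CPM in WT and 56.4 to 71.8 CPM in *Cldn2*KO recovery, and that of the 9 T and NK cell markers was 56.2 to 176 and 23.1 to 37.8 CPM, with 0 of 9 called in either list. The 6 neutrophil markers other than *Ly6g* summed to 2.87 to 8.28 CPM in WT and 3.43 to 24 CPM in *Cldn2*KO, where replicate 2 was the highest library, and 5 of 6 tested, all but *Ly6g*, had positive log2 fold changes (median 1.07). The sum of 8 epithelial markers overlapped, at 10480 to 14760 and 10170 to 16470 CPM, with 7 of 8 positive (median 0.40). In both lists 0 were called. The sum of 6 B and plasma cell markers was 90.7 to 130.5 CPM in WT and 16.8 to 20.5 CPM in *Cldn2*KO, without overlap, with 1 of 6 called lower, and without *Jchain* the sums overlapped (3.05 to 8.11 and 1.07 to 3.49 CPM). Small intestine markers summed to 96.0 to 342 CPM in WT and 59.7 to 130.5 CPM in *Cldn2*KO, with 0 called. The part of these markers in the members' levels was not tested.

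In AOM/DSS, where colitis-associated cancer is compared between genotypes, most members overlapped. No member was called, at a background of 0.0059% of all genes, which is 1 gene. At an unadjusted p under 0.05 there was 1 lower member, *Nfkbiz*, and 386 of all 16937 genes were lower. DESeq2 and limma-voom called 0 members (background 0.0237% and 0.0059%). *Nfkbiz* stood at 116, 120 and 145 CPM in WT AOM/DSS and at 79.4, 64.2 and 91.2 CPM in *Cldn2*KO AOM/DSS. The groups did not overlap (log2 fold change -0.70, SE 0.162, adjusted p 0.862).

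The ligands were highest in WT AOM/DSS replicate 3. *Tnf* stood at 3.34, 10.0 and 25.0 CPM in WT and at 10.2, 2.63 and 6.59 CPM in *Cldn2*KO, so that the groups overlapped (log2 fold change -0.99, SE 0.869, adjusted p 0.914). *Il1a* stood at 0.387, 0.657 and 14.6 CPM in WT and at 1.05, 0.552 and 2.54 CPM in *Cldn2*KO. The log2 fold change of *Il1a* was -1.91 (SE 0.986), and without WT AOM/DSS replicate 3 it turned to 1.38 (SE 0.697, adjusted p 0.98). That of *Tnf* was -0.05 without the same library.

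Of the other members, *Nfkbia* had 71.7, 114 and 108 CPM in WT and 99.9, 57.9 and 53.8 CPM in *Cldn2*KO AOM/DSS. *Zc3h12a* had 49.2, 64.3 and 90.2 CPM in WT and 60.5, 31.8 and 59.9 CPM in *Cldn2*KO, a log2 fold change of -0.42 (SE 0.309). Both overlapped between genotypes. *Nfkb1* (54.8 to 87.7 and 62.7 to 75.7 CPM), *Nfkb2* (23.1 to 39.4 and 29.1 to 38.9 CPM), *Relb* (36.9 to 50.6 and 45.8 to 60.4 CPM), *Bcl3* (27.1 to 57.2 and 35.5 to 50.6 CPM) and *Tnfaip3* (67.7 to 95.0 and 69.2 to 92.8 CPM) also overlapped, with log2 fold changes from -0.08 to 0.28. Of the markers, 0 of 6 tested neutrophil (median -3.07), 0 of 6 B and plasma cell (-1.40) and 1 of 9 T and NK cell markers (-1.11) were positive. Positive too were 8 of 8 epithelial (median 0.21), 6 of 6 smooth muscle (1.09) and 4 of 4 endothelial markers (0.28). None of these markers was called (background 0.0059% of all genes), and their part in the members' levels was not tested.

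Averaged over the 3 treatments with equal weight, *Nfkbiz* was the 1 member called, at a background of 1.21% of all genes called lower. Its mean log2 fold change of *Cldn2*KO over WT was -0.58 (SE 0.0933, adjusted p 0.00463), and it was called in 26 of 26 alternative settings. This mean joins -1.36, 0.34 and -0.70 in controls, recovery and AOM/DSS, so that the direction was not the same in recovery. *Zc3h12a* had a mean of -0.60 (SE 0.18, adjusted p 0.108) from -2.25, 0.87 and -0.42. For *Relb* the 3 differences were all positive (0.17, 0.36 and 0.28), with a mean of 0.27 (SE 0.0953, adjusted p 0.159) that was not called.

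Recovery was next compared with control within each genotype, to follow the pathway through repair. *Nfkbiz* and *Zc3h12a* were called lower in WT and higher in *Cldn2*KO, and no other member was called in both genotypes. In WT, 5 members were called lower (background 12.2% of all genes lower) and in *Cldn2*KO, 5 members were called higher (background 9.43% higher). The median log2 fold change was -0.74 in WT and 0.64 in *Cldn2*KO, against -0.039 and 0.0037 over all genes.

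In WT, the fall was greatest for *Tnfaip3*, with a log2 fold change of -1.97 (SE 0.425, adjusted p 0.00549) and a mean of 25.9 ± 8.78 CPM in recovery against 102 ± 57.7 CPM in controls (SD, n = 3). The log2 fold change was -1.43 for *Zc3h12a* (SE 0.317, adjusted p 0.00606), -1.19 for *Bcl3* (SE 0.338, adjusted p 0.0216), -0.72 for *Nfkbiz* (SE 0.162, adjusted p 0.00661) and -0.60 for *Nfkb1* (SE 0.205, adjusted p 0.0453). For all 5 the recovery libraries lay below every control library, as they also did for *Nfkb2* and *Nfkbia*, which were not called. The share of all genes separated in this way is not given here. *Tnfaip3* stood at 35.5 CPM in WT control replicate 2, the control library without *Hoxb13*, against 139.6 and 131 CPM in the others, and its recovery libraries had 16.1 to 33.1 CPM. A term for *Hoxb13* in the fit rests on WT control replicate 2, the only library that differed in it from its group. With that term, the log2 fold change of *Tnfaip3* was -0.45 (adjusted p 0.499) and 1 member, *Nfkb1*, was called. *Nfkbiz* and *Zc3h12a* differed less between the WT controls, and with the same term their log2 fold changes were -0.45 (adjusted p 0.182) and -1.08 (adjusted p 0.108). With WT control replicate 2 and *Cldn2*KO recovery replicate 2 left out together, all 3 genes were called. Their log2 fold changes were then -2.40 for *Tnfaip3*, -0.85 for *Nfkbiz* and -1.59 for *Zc3h12a* (adjusted p 4.04e-05 to 0.00259). The call of *Nfkb1* was lost without WT control replicate 2 (log2 fold change -0.36, adjusted p 0.178) or any 1 of the recovery libraries, and that of *Bcl3* without WT control replicate 1 or 3 or WT recovery replicate 2 or 3. With a term for *Xist* neither was called, at log2 fold changes of -0.63 (adjusted p 0.0938) and -1.24 (adjusted p 0.0504).

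In *Cldn2*KO, *Zc3h12a* rose by 1.70 on the log2 scale (SE 0.321, adjusted p 0.00239), from 14.3 ± 2.61 to 46.3 ± 20.1 CPM (SD, n = 3), and *Nfkbiz* rose by 0.98 (SE 0.163, adjusted p 0.00107), from 54.1 ± 6.08 to 107 ± 13.9 CPM. Both remained called without any 1 library of the groups compared, and with a term for *Hoxb13* *Zc3h12a* was not called (log2 fold change 2.19, adjusted p 0.103). The other 3 called members were close to the threshold, *Nfkb2* with 0.78 (SE 0.252, adjusted p 0.0397), *Nfkbia* with 1.04 (SE 0.341, adjusted p 0.043) and *Tnf* with 2.95 (SE 0.995, adjusted p 0.0493). These 3 rested on *Cldn2*KO recovery replicate 2, without which they had log2 fold changes of 0.46, 0.37 and 1.49 and were not called. The calls of *Tnf* and *Nfkbia* were also lost without any 1 of the *Cldn2*KO controls, that of *Nfkb2* without replicate 1 or 2 of them, and that of *Tnf* without recovery replicate 3. With a term for *Xist* none of these 3 was called (adjusted p 0.103 to 0.124), at log2 fold changes of 0.77, 1.13 and 3.23 for *Nfkb2*, *Nfkbia* and *Tnf*. With a term for *Hoxb13* they were 0.64, 1.29 and 4.87, also not called (adjusted p 0.241 to 0.624). *Tnfaip3* had a log2 fold change of -0.95 (SE 0.413, adjusted p 0.123), the same sign as in WT. *Nfkb1* had 0.49 (adjusted p 0.104), and *Il1a*, *Relb* and *Bcl3* lay between -0.07 and 0.05. No *Cldn2*KO control was low in *Hoxb13* and every *Cldn2*KO recovery library was, so that in this genotype colon region and recovery cannot be told apart.

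Cell type markers also moved between control and recovery. Of 8 epithelial markers, 5 were called lower in WT recovery and 0 in *Cldn2*KO recovery. The summed levels were 18610 to 19720 CPM in WT controls, 10480 to 14760 CPM in WT recovery, 14610 to 17630 CPM in *Cldn2*KO controls and 10170 to 16470 CPM in *Cldn2*KO recovery. Of 9 macrophage markers 5 were called lower in each genotype, with sums that went from 249.7 to 368 CPM to 79.0 to 119 CPM in WT and from 127.5 to 386 CPM to 56.4 to 71.8 CPM in *Cldn2*KO. Of 6 smooth muscle markers 3 were called lower in WT and 6 in *Cldn2*KO, and their sum went from 3528 to 5313 CPM to 667 to 2021 CPM in WT and from 7225 to 9601 CPM to 784 to 1392 CPM in *Cldn2*KO. Of 9 T and NK cell markers 1 was called lower in WT and 5 higher in *Cldn2*KO. Their sum was 10.5, 138 and 14.5 CPM in WT controls 1, 2 and 3 and 56.2 to 176 CPM in WT recovery. Of 6 tested neutrophil markers 0 were called in WT and 3, *S100a8*, *S100a9* and *Mmp8*, higher in *Cldn2*KO. The sum without *Ly6g* went from 0.327 to 2.36 CPM to 2.87 to 8.28 CPM in WT and from 0.197 to 0.592 CPM to 3.43 to 24 CPM in *Cldn2*KO. *Ly6g* itself had log2 fold changes of -2.84 (adjusted p 0.103) and -3.54 (adjusted p 0.0594). Of 6 B and plasma cell markers 3 were called lower in WT and 2 in *Cldn2*KO, and of 6 fibroblast markers 3 in each. Of 4 endothelial markers 3 were called lower in WT and 0 in *Cldn2*KO, and of 5 dendritic cell markers 3 and 1. Of 3 tested small intestine markers 1 was called higher in WT and 2 in *Cldn2*KO. The neutrophil markers *Retnlg* (both control groups) and *Mmp8* (*Cldn2*KO controls) were at 0 throughout, and no other marker of these lists was. Differences between genotypes in these marker responses were called for 0 markers of these lists, where 0.13% of all genes were called, so that this 0 says little. They were positive for 9 of 9 T and NK cell (median 2.72), 8 of 8 epithelial (0.54) and 4 of 4 endothelial markers (0.67). Of 6 smooth muscle markers 0 were positive (median -1.275), of 6 fibroblast markers 1 was (-0.69), and the other lists were mixed. The part of these markers in the members' responses was not tested.

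**Figure D3:**
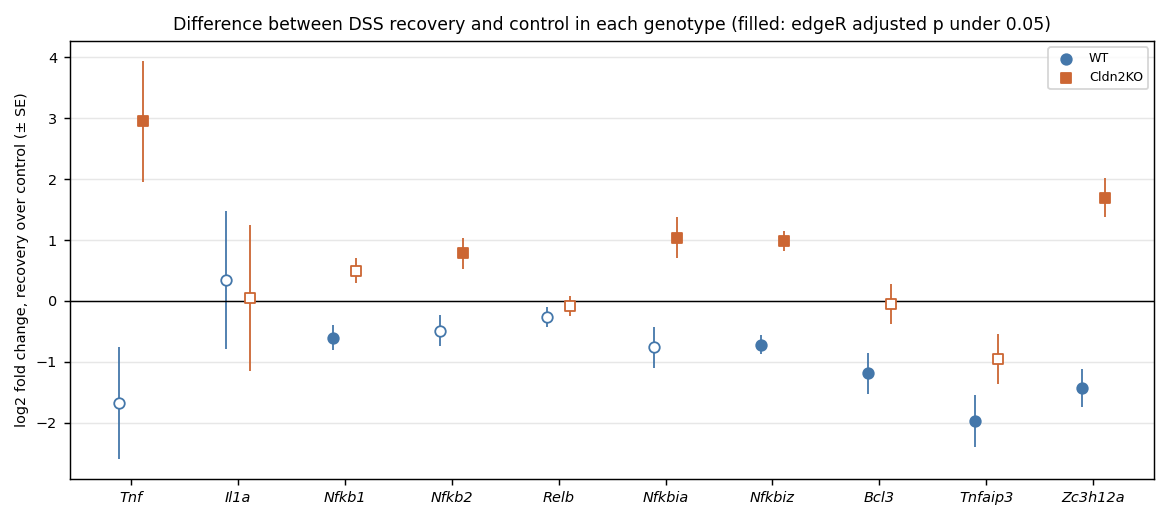
Log2 fold change of DSS recovery over control (y axis) for each of the 10 genes in WT (blue circles) and *Cldn2*KO (orange squares), with bars for the SE and filled symbols for genes called by edgeR. *Zc3h12a* lies at -1.43 in WT and at 1.70 in *Cldn2*KO, and *Nfkbiz* at -0.72 and 0.98, whereas *Tnfaip3* is below 0 in both.

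Whether the response to recovery differed between genotypes was tested by an interaction term over all 12 libraries of these 4 groups, in the fit of all 18. Of the 16937 genes, 22 were called, and 2 of them were members. Both were more positive in *Cldn2*KO, at a background of 0.106% of all genes called in this direction. At an unadjusted p under 0.05, 7 members were more positive and 0 less so, at a background of 9.74%. DESeq2 called 6 members and limma-voom 7, at backgrounds of 7.56% and 10.4% of the genes with an adjusted p called in either direction.

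The difference in response was 1.70 for *Nfkbiz* (SE 0.23, adjusted p 0.0155) and 3.12 for *Zc3h12a* (SE 0.451, adjusted p 0.021) on the log2 scale. In both genes the means of the 4 groups crossed, with WT controls above *Cldn2*KO controls and *Cldn2*KO recovery above WT recovery. For *Zc3h12a* the recovery groups did not overlap (21.4 to 30.6 CPM in WT and 32.9 to 69.5 CPM in *Cldn2*KO), and for *Nfkbiz* they did (80.5 to 92.4 and 90.7 to 116 CPM). The larger share of both interactions was the difference in the controls. The 3 *Cldn2*KO controls and the 3 WT controls enter this test as well as the comparison of controls and the comparisons of recovery with control.

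With each library of the 4 groups left out in turn, the difference in response ranged from 1.61 to 1.82 for *Nfkbiz* and from 2.71 to 3.32 for *Zc3h12a*. The adjusted p passed 0.05 for both genes without *Cldn2*KO control replicate 1 (0.0924 and 0.13), *Cldn2*KO control replicate 2 (0.0544 and 0.0848), WT recovery replicate 2 (0.0639 and 0.0763), WT recovery replicate 3 (0.0668 and 0.0881) or *Cldn2*KO recovery replicate 2 (0.0501 for both). For *Zc3h12a* it also did so without WT recovery replicate 1 (0.0507). With WT control replicate 2 and *Cldn2*KO recovery replicate 2 left out together, both genes were called, at 1.77 and 2.86 (adjusted p 0.024 for both). A term for *Hoxb13* gave 1.82 and 3.27, as leaving out WT control replicate 2 alone did (1.82 and 3.28), since the term rests on that library, and it is no separate test of colon region.

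**Figure D4:**
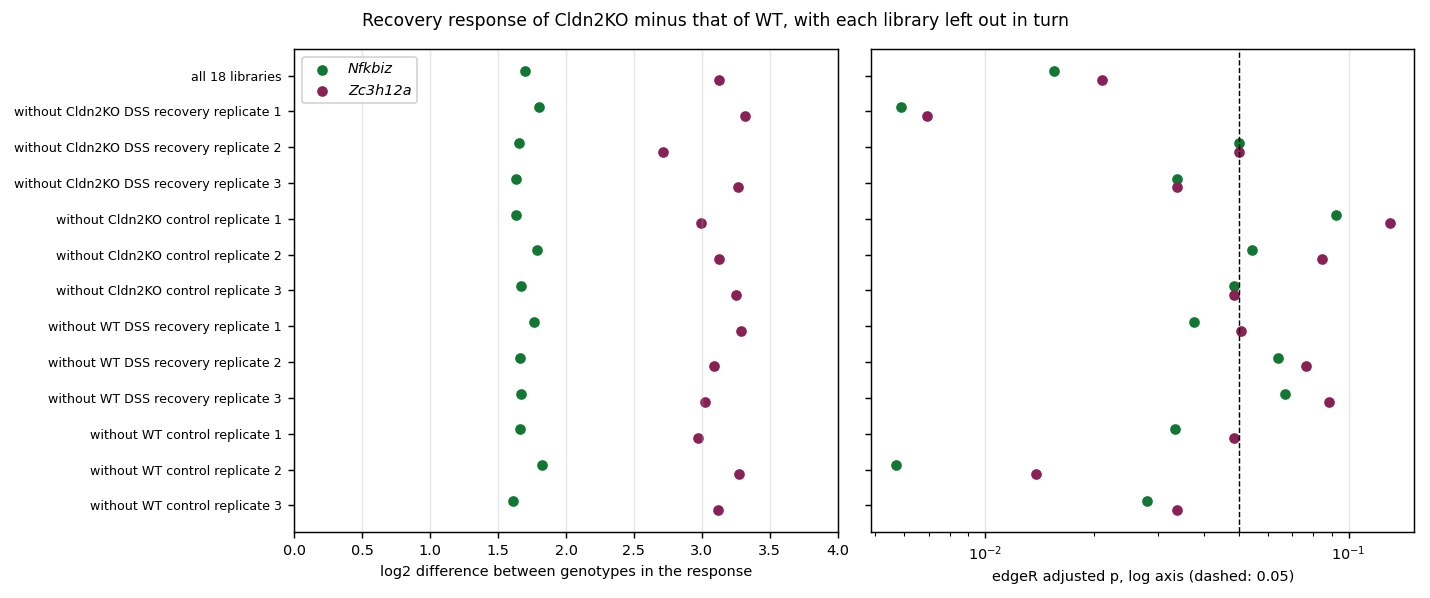
Difference between genotypes in the recovery response (log2, left) and its edgeR adjusted p (log axis, right; the dashed line is 0.05) for *Nfkbiz* (green) and *Zc3h12a* (purple), with all 18 libraries in the top row and 1 library left out in each other row. The log2 differences lie between 1.61 and 1.82 for *Nfkbiz* and between 2.71 and 3.32 for *Zc3h12a*, while the adjusted p moves from below the line to as much as 0.13.

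The other members of the unadjusted list had differences in response of 4.63 for *Tnf* (SE 1.35, adjusted p 0.107), 1.80 for *Nfkbia* (SE 0.481, adjusted p 0.0906), 1.27 for *Nfkb2* (SE 0.357, adjusted p 0.0984), 1.10 for *Nfkb1* (SE 0.289, adjusted p 0.0892) and 1.13 for *Bcl3* (SE 0.472, adjusted p 0.218). None of these 5 was called. Without *Cldn2*KO recovery replicate 2 the difference was 3.16 for *Tnf* and 1.13 for *Nfkbia*, and without replicate 1 of that group *Nfkbia* was called (2.06, adjusted p 0.038). For *Bcl3* it was 0.71 without *Cldn2*KO recovery replicate 3. *Tnfaip3* (1.02, SE 0.582), *Relb* (0.19, SE 0.233) and *Il1a* (-0.30, SE 1.66) had intervals of 2 SE that included 0.

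AOM/DSS was compared with control in the same way. In WT no member was called, at a background of 10.4% of all genes called in either direction. At an unadjusted p under 0.05 *Il1a* was higher and *Relb* lower, and of all 16937 genes 2213 were higher and 2856 lower. DESeq2 and limma-voom called 1 each (background 17.9% and 15.2%). *Il1a* had the largest log2 fold change of 3.51 (SE 1.10, adjusted p 0.0538), which was 0.21 without WT AOM/DSS replicate 3 and was called without replicate 1 (4.09, adjusted p 0.0235) or replicate 2 (4.05, adjusted p 0.0299). *Zc3h12a* and *Nfkbia* had equal means in WT AOM/DSS and WT controls, with log2 fold changes of -0.0030 (SE 0.309) and -0.0023 (SE 0.337).

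In *Cldn2*KO, *Zc3h12a* was the 1 member called higher in AOM/DSS than in control, at a background of 0.0768% of all genes called higher. It had 60.5, 31.8 and 59.9 CPM in AOM/DSS against 11.6, 14.4 and 16.8 CPM in controls, without overlap (log2 fold change 1.83, SE 0.322, adjusted p 0.0384). It was called in 9 of 15 alternative settings, and the call was lost without any 1 of the *Cldn2*KO controls or without *Cldn2*KO AOM/DSS replicate 1 or 3 (adjusted p 0.107 to 0.264). It was also lost with a term for *Xist* (log2 fold change 1.88, adjusted p 0.137). *Tnf* (3.24, SE 0.999, adjusted p 0.164) and *Nfkbiz* (0.53, SE 0.162, adjusted p 0.157) were higher in each AOM/DSS library than in each control library and were not called. The same held for *Il1a* (1.95) and *Nfkb1* (0.34). *Relb* (-0.33) was lower in each AOM/DSS library and was not called either.

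No member had a called difference in the AOM/DSS response between genotypes, at a background of 0.0118% of all genes, which is 2 genes. *Zc3h12a* had a difference of 1.83 (SE 0.443, adjusted p 0.338) and *Nfkbiz* of 0.66 (SE 0.228, adjusted p 0.503). These 2 were also the members at an unadjusted p under 0.05, where 917 of all 16937 genes were more positive in *Cldn2*KO. DESeq2 called 1 member, *Zc3h12a*, and limma-voom 2 (background 0.515% and 1.77%). AOM/DSS and control libraries, but for WT control replicate 2, did not differ in the presence of *Hoxb13*.

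Markers moved between control and AOM/DSS as well. Of 6 tested neutrophil markers 5 were called higher in WT (median log2 fold change 5.73), and in *Cldn2*KO 5 were positive (median 5.36) and 0 called. The sum without *Ly6g* was 2.86, 15.9 and 336.5 CPM in WT AOM/DSS and 5.61 to 19.4 CPM in *Cldn2*KO AOM/DSS, against 0.327 to 2.36 and 0.197 to 0.592 CPM in the controls. Of 8 epithelial markers 4 were called lower in WT, where the sum was 10220 to 12540 CPM in AOM/DSS, and 0 in *Cldn2*KO, where it was 12470 to 16260 CPM. All 6 smooth muscle markers were negative in both genotypes, with 2 called in WT and 0 in *Cldn2*KO, and sums of 524 to 2789 and 2183 to 5476 CPM in AOM/DSS. Of 9 T and NK cell markers 0 were positive and 1 was called lower in WT, while 7 were positive and 0 called in *Cldn2*KO. The part of these markers in the members' responses was not tested.

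The group order of the levels differed between members. For *Zc3h12a* the means ran from WT controls (68.0 ± 14.1 CPM) and WT AOM/DSS (67.9 ± 20.7) through *Cldn2*KO AOM/DSS (50.7 ± 16.4), *Cldn2*KO recovery (46.3 ± 20.1) and WT recovery (25.3 ± 4.73) to *Cldn2*KO controls (14.3 ± 2.61; SD, n = 3 each). The ranges of neighbours overlapped, except that WT recovery lay below *Cldn2*KO recovery and above *Cldn2*KO controls. For *Nfkbiz* the order was WT controls (139 ± 21.2), WT AOM/DSS (127 ± 15.4), *Cldn2*KO recovery (107 ± 13.9), WT recovery (84.6 ± 6.82), *Cldn2*KO AOM/DSS (78.2 ± 13.5) and *Cldn2*KO controls (54.1 ± 6.08), and of the neighbours WT AOM/DSS and *Cldn2*KO recovery touched at 116 CPM while *Cldn2*KO AOM/DSS and *Cldn2*KO controls did not overlap. *Tnf* was highest in WT AOM/DSS (12.8 ± 11.1) and lowest in *Cldn2*KO controls (0.681 ± 0.442), an 18.8-fold ratio of means. *Nfkb1* and *Relb* changed least, with a ratio of the highest to the lowest group mean of 1.52 each.

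The rest of the pathway was read from a list of 79 other genes in 6 classes, of which 75 passed the filter. *Sele*, *Il6*, *Csf2* and *Csf3* did not, with 26 to 96 reads in all 18 libraries together. In controls, 0 of the 75 were called higher and 3 lower in *Cldn2*KO, all of them among the 21 tested target genes (4.0% of the 75, against 1.05% of all genes). A positive log2 fold change was seen in 13 of 75, against 49.3% of all genes. *Irf1*, an interferon regulatory transcription factor, stood at 392, 362 and 357 CPM in WT and at 173, 189 and 209 CPM in *Cldn2*KO controls (log2 fold change -0.96, SE 0.177, adjusted p 0.0146). The groups did not overlap. *Nos2*, the inducible nitric oxide synthase, had 65.1, 17.1 and 41.1 CPM against 0.838, 0.888 and 1.08 CPM (-5.45, SE 1.12, adjusted p 0.0297). *Ccl5*, a chemokine made by T cells among others, had 2.005, 28.1 and 3.13 CPM against 0.296, 0.166 and 0.323 CPM (-5.36, SE 1.03, adjusted p 0.0208), with the highest level in the WT library that also had the highest T and NK marker sum.

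In recovery and in AOM/DSS, 0 of the 75 genes were called between genotypes, at backgrounds of 0.974% and 0.0059% of all genes, so that a count of 0 says little about the list. In recovery 58 of 75 had a positive log2 fold change (median 0.21), against 50.3% of all genes, and in AOM/DSS 25 of 75 did (median -0.12), against 49.4%. All 5 of the other subunit and IκB genes (*Rel*, *Rela*, *Nfkbib*, *Nfkbid*, *Nfkbie*) were positive in recovery, with a median of 0.46, and of the 10 kinase genes 9 were (median 0.13). So were 9 of 10 other feedback genes (0.34), 19 of 23 receptor and adaptor genes (0.19), 13 of 21 targets (0.17) and 3 of 6 ligands (0.07). In AOM/DSS 1 of 21 targets (median -1.25) and 1 of 6 ligands (-1.17) were positive, against 13 of 23 receptor and adaptor genes (0.04). Over the 3 treatments, *Irf1* (-0.61, SE 0.101, adjusted p 0.00565), *Cxcl10* (-1.76, SE 0.334, adjusted p 0.0136) and *Ccl5* (-2.55, SE 0.528, adjusted p 0.0241) were lower in *Cldn2*KO.

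Within WT, recovery called 1 of the 75 genes higher and 14 lower than control, or 1.33% and 18.7%, against 10.0% and 12.2% of all genes. The 4 with the smallest adjusted p were *Tnip1*, which encodes a partner of A20 (39.3 ± 1.35 against 104 ± 12.1 CPM, log2 fold change -1.41), *Zfp36*, which encodes the mRNA-destabilising protein tristetraprolin (42.5 ± 1.54 against 94.9 ± 12.2 CPM, -1.16), the TNF receptor adaptor gene *Tradd* (-0.85) and the IL-1 receptor kinase gene *Irak2* (-1.03), with adjusted p from 0.000377 to 0.00627. Within *Cldn2*KO, 9 were called higher and 4 lower, or 12% and 5.33%, against 9.43% and 10.0% of all genes. The IL-1 receptor gene *Il1r1* (1.11, adjusted p 0.00443), *Irak3*, an inhibitor of IL-1 and Toll-like receptor signalling (1.28, adjusted p 0.00525), and the IκB kinase gene *Ikbkb* (0.63, adjusted p 0.00836) were higher, and *Tnip1* (-0.76, adjusted p 0.00746) was lower. *Tnip1* was thus called lower in recovery in both genotypes. For the interaction with recovery, 0 of 75 were called and 62 of 75 were positive (median 0.53, against 0.047 and 53.0% positive over all genes).

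AOM/DSS called 5 of the 75 genes higher and 6 lower than control in WT (6.67% and 8.0%, against 3.81% and 6.58% of all genes) and 0 in *Cldn2*KO, where 0.195% of all genes were called. The difference between genotypes in this response was called for 0 of 75 and for 0.0118% of all genes. *Tnip1* (-1.12, adjusted p 0.00436), *Irf1* (-0.99, adjusted p 0.00824) and *Zfp36* (-1.05, adjusted p 0.0104) were lower in WT AOM/DSS. *Cxcl5*, a neutrophil-attracting chemokine, had 19.4, 41.2 and 573 CPM in WT AOM/DSS against 6.13, 0.131 and 11.4 CPM in WT controls (5.15, SE 1.26, adjusted p 0.0265). Its highest level was in WT AOM/DSS replicate 3, the library that was also highest for *Tnf* and *Il1a* and for the neutrophil marker sum without *Ly6g*.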

How the data were processed

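RNA-Seq counts were analysed for 18 colon libraries. The authors sequenced on an Illumina NovaSeq and deposited raw counts per gene, made with featureCounts (Subread) on GRCm38. The submitters' processing notes name HISAT2 as the aligner and the study's methods name TopHat2. Versions, strandedness and the handling of multi-mapping reads are not given in the sources used here. The authors' own comparisons used DESeq2.

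The 2 lanes of each library were summed. Gene symbols came from GENCODE release M21, which held 47310 of the 47729 identifiers. Genes were filtered with filterByExpr (16937 kept), scaled with TMM and fitted over all 18 libraries with edgeR 4.0.16 (R 4.3.3, robust quasi-likelihood, 1 mean per group). Contrasts were adjusted by Benjamini-Hochberg over all genes tested and called under 0.05. Alternatives comprised RLE and upper-quartile scaling, no filter or 1 CPM in 3 libraries, DESeq2 1.42.0, weighted limma-voom (limma 3.58.1), the compared groups fitted alone, terms for *Xist* (over 100 CPM) or *Hoxb13* (over 10 CPM), the replicate number as a block, and each library left out in turn. A fit without both WT control 2 and *Cldn2*KO recovery 2 was added after seeing the data. Simulated counts with known changes were used to test the scripts. With 3 libraries per group and a biological coefficient of variation of 0.315, small differences could not be resolved.

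The members, the wider list and the marker lists were chosen with earlier results of these data known. All 10 members are named, and of the wider list up to 4 called genes per comparison with the smallest adjusted p.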

Additional observations from a re-analysis of the deposited data

Results flagged for a closer look

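The difference between genotypes in the response to DSS recovery was called by the interaction term for *Nfkbiz* (1.70 on the log2 scale) and *Zc3h12a* (3.12). These were singled out because the response fell in WT and rose in *Cldn2*KO and the difference itself was tested. *Nfkbiz* went from 139 to 84.6 CPM in WT and from 54.1 to 107 CPM in *Cldn2*KO, and *Zc3h12a* from 68.0 to 25.3 CPM in WT and from 14.3 to 46.3 CPM in *Cldn2*KO (group means). All 6 recovery libraries were low in *Hoxb13*. The summed T and NK cell markers were 10.5, 138 and 14.5 CPM in WT controls 1, 2 and 3, and 56.2, 176 and 59.7 CPM in WT recovery. The 138 CPM stood in the control low in *Hoxb13*. In *Cldn2*KO the sum went from 1.39 to 8.50 CPM to 23.1 to 37.8 CPM. Differences between genotypes in the response were positive for 9 of 9 T and NK cell, 8 of 8 epithelial and 0 of 6 smooth muscle markers, with 0 called. The part of these in the 2 differences was not tested. No outlier test was run on groups of 3 libraries.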

How the results depend on the processing

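Counts of called members depended on the test, and so did the share of all genes called, given in brackets. In *Cldn2*KO against WT, DESeq2 called 3 (4.07%) and limma-voom 4 (15.1%) in controls, DESeq2 2 (10.3%), limma-voom 6 (11.2%) and the *Hoxb13* term 1 (3.18%) in recovery, and DESeq2 2 (5.34%) and limma-voom 3 (11.9%) over the mean of 3 treatments. For WT recovery against control DESeq2 gave 5 (27.2%), limma-voom 7 (48.0%), the *Xist* term 3 (13.9%) and the *Hoxb13* term 1 (8.72%). For *Cldn2*KO recovery against control, DESeq2 gave 5 (23.9%), limma-voom 7 (34%), upper-quartile scaling 2 (19%), no filter 3 (8.6%), the *Xist* term 2 (11.1%), the *Hoxb13* term 1 (0.785%) and leaving out 2 libraries 3 (17.8%). Under the *Hoxb13* term, *Nfkb1* (-0.17) and *Tnfaip3* (0.98) there changed sign, and neither was called. For WT AOM/DSS, DESeq2 (17.9%) and limma-voom (15.2%) gave 1 each. For *Cldn2*KO AOM/DSS, DESeq2 gave 2 (3.56%), limma-voom 4 (18.3%), the fit of only the groups compared 2 (5.87%) and the *Xist* term 0 (0.0295%). For the interactions, DESeq2 gave 6 (7.56%) and limma-voom 7 (10.4%) with recovery, and 1 (0.515%) and 2 (1.77%) with AOM/DSS. The causes were not tested.

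With 1 library left out, the counts ranged from 2 to 2 (controls), 0 to 2 (recovery), 0 to 0 (AOM/DSS) and 1 to 2 (mean) between genotypes. They ranged from 3 to 4 (WT recovery), 2 to 5 (*Cldn2*KO recovery), 0 to 1 (WT AOM/DSS), 0 to 1 (*Cldn2*KO AOM/DSS), 0 to 3 (interaction with recovery) and 0 to 0 (with AOM/DSS). Of 795 comparisons of a value with an alternative, 678 kept direction and side of the threshold, 66 lost a call, 49 gained one and 2 changed sign.

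The count over all genes was 199 between controls (25 to 2552 over the alternatives), 165 between recovery groups (3 to 1902), 1 between AOM/DSS groups (1 to 4), 254 over the mean (115 to 2015), 3767 for WT recovery (1477 to 8125), 3291 for *Cldn2*KO recovery (133 to 5757), 1761 for WT AOM/DSS (7 to 3033), 33 for *Cldn2*KO AOM/DSS (4 to 3107), 22 for the interaction with recovery (0 to 1762) and 2 with AOM/DSS (0 to 299). Leaving out *Cldn2*KO control replicate 1 gave the lowest count for controls and the mean. The interaction with recovery called 0 genes without *Cldn2*KO control replicate 1 or 2, *Cldn2*KO recovery replicate 2 or WT recovery replicate 2 or 3, and *Cldn2*KO AOM/DSS called 4 without *Cldn2*KO control replicate 2 or *Cldn2*KO AOM/DSS replicate 3.

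The replicate numbers of WT and *Cldn2*KO controls were not taken as pairs, since the deviations of same-numbered libraries correlated at 0.158, 0.0023 and 0.0794 and not every library correlated best with its own number. With a replicate block, 2 members were called between controls, *Nfkbiz* at -1.36 (adjusted p 0.00197) and *Zc3h12a* at -2.25 (adjusted p 0.00703), and 179 genes in all. Depth limited *Il1a*, with 2 to 309 reads per library.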
